A study of Mus musculus with 8 samples.

Results

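The results concern 9 integrin genes, Itga4, Itgal, Itgam, Itgav, Itgae, Itgb1, Itgb2, Itgb5 and Itgb7, chosen by name from the 31053 genes of the deposited matrices and followed through the immune cells of normal and glioma-bearing mouse brain. All 9 were found by gene symbol. CD45+ cells, that is leukocytes and microglia, were magnetically sorted from the brains of normal mice (control) and from tumours in the brains of mice bearing glioma, and sequenced with droplet 3′ single-cell RNA-seq. The labels list 4 samples in each group, but each group came as 1 matrix with no map from barcodes to animals, so each group was 1 pooled library and no comparison could be tested. Strain, age, sex and the tumour line were not given in the sources used here. Every interval below covers counting error only, at the 95% level, and says nothing of variation between mice.

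Integrins are cell-surface adhesion receptors, each built from 1 alpha and 1 beta chain. Leukocytes use the alpha 4 and beta 2 integrins to stop on activated vessel walls and leave the blood, whereas cells that live within brain tissue use alpha V and other integrins to bind matrix and latent TGF-beta. Itga4 encodes the alpha 4 chain, which pairs with the Itgb1 product as VLA-4 (the receptor for VCAM-1) or with the Itgb7 product as the receptor for MAdCAM-1. Itgal encodes the alpha chain of LFA-1, and Itgam that of complement receptor 3 (CD11b), both joined to the beta 2 chain of Itgb2. Itgav (alpha V) pairs with Itgb5 among others, and Itgae (CD103) pairs with Itgb7 and binds E-cadherin.

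The 250 bases upstream of the start sites are shown for 4 of the members. They are RefSeq sequence on GRCm38.p6, read 5′ to 3′ on the gene's own strand. Capitals mark matches, on either strand, to TGTGGT, the core bound by RUNX factors, or GAGGAA, a core bound by the myeloid factor PU.1. These letters were present in 14.0% and 23.3% of 32851 mouse promoters of the same length. GGGCGG, the Sp1 core, is not capitalised and was present in 32.7%.

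Itga4, chr2:79255176-79255425, plus strand: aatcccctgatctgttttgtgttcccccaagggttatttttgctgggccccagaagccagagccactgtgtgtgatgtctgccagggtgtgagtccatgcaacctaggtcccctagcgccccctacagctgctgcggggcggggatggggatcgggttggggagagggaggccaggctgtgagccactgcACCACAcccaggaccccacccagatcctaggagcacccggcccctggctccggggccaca
Itgam, chr7:128062390-128062639, plus strand: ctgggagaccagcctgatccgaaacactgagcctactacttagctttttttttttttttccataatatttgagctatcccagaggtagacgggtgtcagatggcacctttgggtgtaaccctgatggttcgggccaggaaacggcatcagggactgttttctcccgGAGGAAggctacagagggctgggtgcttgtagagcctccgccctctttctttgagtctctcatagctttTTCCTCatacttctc
Itgb5, chr16:33829415-33829664, plus strand: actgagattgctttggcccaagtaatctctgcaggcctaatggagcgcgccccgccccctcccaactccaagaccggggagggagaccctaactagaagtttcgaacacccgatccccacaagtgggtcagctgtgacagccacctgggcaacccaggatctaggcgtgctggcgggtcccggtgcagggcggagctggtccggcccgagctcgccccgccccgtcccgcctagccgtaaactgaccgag
Itgb7, chr15:102231936-102232185, minus strand: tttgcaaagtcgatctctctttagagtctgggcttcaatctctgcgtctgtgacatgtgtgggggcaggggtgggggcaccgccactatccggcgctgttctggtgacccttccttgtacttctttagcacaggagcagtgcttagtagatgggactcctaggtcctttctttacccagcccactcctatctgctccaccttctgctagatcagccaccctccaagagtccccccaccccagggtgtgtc

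The Itga4 stretch held 1 RUNX and 1 Sp1 core, the Itgam stretch 2 PU.1 cores and 1 Sp1 core, and the Itgb5 stretch 3 Sp1 cores and neither of the others. The Itgb7 stretch held none of the 3. A promoter was found for 6 of the 9 members. Of the other members found, Itgav held 2 PU.1 cores and Itgb1 held 1. A match is a description of letters and no evidence of binding. Promoters of Itgal, Itgae and Itgb2 were not analysed here.

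On GRCm38 with GENCODE M21 gene models, all 9 members were protein-coding. Itgal (chromosome 7, 127296260 to 127335138) and Itgam (chromosome 7, 128062640 to 128118491) lay on the same chromosome, and Itgam was followed by Itgax (128129547 to 128150657) and Itgad (128154376 to 128223816), which also encode partners of beta 2. Itga4 (79255426 to 79333123) and Itgav (83724397 to 83806916) lay on chromosome 2. Itgb1 lay on chromosome 8 (128685654 to 128733200), Itgb2 on chromosome 10 (77530252 to 77565708), Itgae on chromosome 11 (73090583 to 73147446) and Itgb5 on chromosome 16 (33829665 to 33949338). Itgb7 was the single member on the minus strand (chromosome 15, 102215995 to 102231944).

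The control matrix held 124023146 UMIs and 13680 barcodes that passed the limits of at least 1000 UMIs and at most 10% mitochondrial UMIs. The glioma matrix held 159689787 UMIs and 11049 such barcodes. Median depth was 6842 UMIs per cell in the control library and 11332 in the glioma library. Cells were placed in classes by raw UMIs of marker lists that hold none of the members, 16% of control and 22.6% of glioma cells fell in no class, and 41 barcodes passed in both libraries. Classes with at least 20 cells were used, which gave 16 library-by-class sums, from 10950 control microglia to 23 glioma plasmacytoid dendritic cells. The control library was mostly microglia (80.0% of cells). The glioma library was mostly monocyte/macrophage cells (6246 cells, 56.5%), called macrophages below for short, with 52 microglia. A level is a class's summed UMIs of a gene per 1000000 of all its UMIs (CPM).

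The glioma microglia class was small, and its identity was checked on Sparc, a gene outside the gate lists, and on several gate lists. Sparc, a microglia-enriched gene, had a UMI in 80.8% of the 52 cells and in 1.54% of glioma macrophages, and Siglech in 34.6% and 0.0640%. The monocyte list (8 genes) summed to 40.4 CPM in glioma microglia and 1890 CPM in glioma macrophages, and its gene Ly6c2 had no UMI in glioma microglia. The tumour macrophage list (10 genes) was higher, at 1626 CPM against 5402 CPM. Of the T cell list (9 genes), 8 were at 0 in glioma microglia. The gate let a microglial cell hold only few monocyte, T cell and plasmacytoid dendritic cell markers, the last including Siglech. The low monocyte and T cell values were thus partly fixed by the gate and are no independent check. Of the 52 cells, 19 held exactly the minimum of microglia markers.

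Itga4, the alpha 4 chain, was at the bottom of its range in control microglia and well above it in every lymphocyte, dendritic cell and macrophage class. Control microglia had 172 Itga4 UMIs over 10950 cells, or 2.32 CPM (1.99 to 2.70), and 1.40% of the cells had a UMI. Free RNA of the control library stood at 5.31 CPM, from 1 UMI (0.134 to 29.6), and at that level could have brought up to 2.21 CPM to these microglia. The width of the interval was not carried into this figure, so it is no upper limit. Glioma macrophages stood at 80.9 CPM (79.0 to 82.8), with a UMI in 54.7% of cells. Control macrophages, gated in the same brains as the microglia, stood at 109 CPM (84.3 to 140). The macrophages of both libraries thus stood far above control microglia. Glioma microglia were between them at 20.9 CPM (11.9 to 33.9), from 16 UMIs in 10 cells. Of these, 13 UMIs lay in the 21 cells with 1 to 2 monocyte markers (36.0 CPM, 19.2 to 61.5) and 3 in the other 31 cells (7.39 CPM, 1.52 to 21.6). By Sparc, the level was 11.3 CPM (4.53 to 23.2) in the 42 cells with a UMI and 61.6 CPM (28.2 to 117) in the 10 without. These splits were chosen after the values were seen. Control border-associated macrophages, the resident macrophages of meninges and perivascular spaces, had 44.0 CPM (30.3 to 61.8). The highest level was in control NK cells at 262 CPM (182 to 367), followed by glioma plasmacytoid dendritic cells at 230 CPM (170 to 304), whose interval overlapped it. Going down the order of 16 classes, neighbouring intervals were separate at 3 steps: below glioma dendritic cells (151 CPM), below glioma neutrophils (104 CPM) and below control endothelium (8.22 CPM).

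Itgal, the alpha chain of LFA-1, was also nearly absent from control microglia but, unlike in the case of Itga4, glioma microglia came close to macrophages. Control microglia had 39 UMIs, or 0.527 CPM (0.374 to 0.720), below the 10.6 CPM of free RNA in that library (2 UMIs, 1.29 to 38.3). Glioma macrophages stood at 112 CPM (110 to 115) and control macrophages at 147 CPM (118 to 182). Glioma microglia had 74 UMIs in 20 of 52 cells, or 96.5 CPM (75.8 to 121). Their interval held the glioma macrophage level. The order ran from control NK cells (262 CPM, 182 to 367) through glioma T cells (160 CPM), glioma neutrophils (150 CPM) and glioma NK cells (149 CPM). Dendritic cells were low, at 17.6 CPM (15.0 to 20.6) in glioma. Border-associated macrophages had 9.34 CPM (3.76 to 19.2). Control endothelium had 0 UMIs, which allows up to 3.52 CPM. Neighbouring intervals in this order were separate only below the control NK cells and below the border-associated macrophages.

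The Itgal of glioma microglia was likewise unevenly spread over the 52 cells. The 42 cells with a Sparc UMI held 34 of the 74 Itgal UMIs (54.8 CPM, 37.9 to 76.5), and the 10 cells without one held 40, in 5 cells (274 CPM, 196 to 373). The 31 cells without any monocyte-list UMI had 41.9 CPM (24.4 to 67.1), and the 21 cells with 1 to 2 monocyte markers 158 CPM (119 to 204). Itgal was thus lower in the cells with Sparc and in those without monocyte UMIs, and each of these subsets stood above control microglia at 0.527 CPM. The 20 cells with an Itgal UMI had P2ry12 in 90% and Tmem119 in 85%, and the 32 cells without had them in 84.4% and 68.8%. The former were deeper per cell, with 392335 UMIs over 20 cells against 374644 over 32. Scaled for depth, both genes were lower in the cells with Itgal. P2ry12 was at 125 CPM (92.4 to 165) against 155 CPM (118 to 200). Tmem119 was at 171 CPM (132 to 217) against 235 CPM (188 to 289), with overlapping intervals for both. If all monocyte-list RNA in glioma microglia had come from macrophages, macrophage RNA would have made up 2.14% of the class and brought 2.40 CPM of Itgal and 1.73 CPM of Itga4. The microglia gate left out cells with more than 2 monocyte markers, so this share was held down by selection and is no upper limit. By the tumour macrophage list, whose genes microglia may also express, the figure was 30.1%, with 33.8 CPM of Itgal and 24.3 CPM of Itga4. That Itga4 value lay above the whole Itga4 level of the class. The part of macrophage RNA in these levels was not tested. Free RNA of the glioma library could have brought at most 1.22 CPM of Itgal and 1.19 CPM of Itga4.

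**Figure D1:**
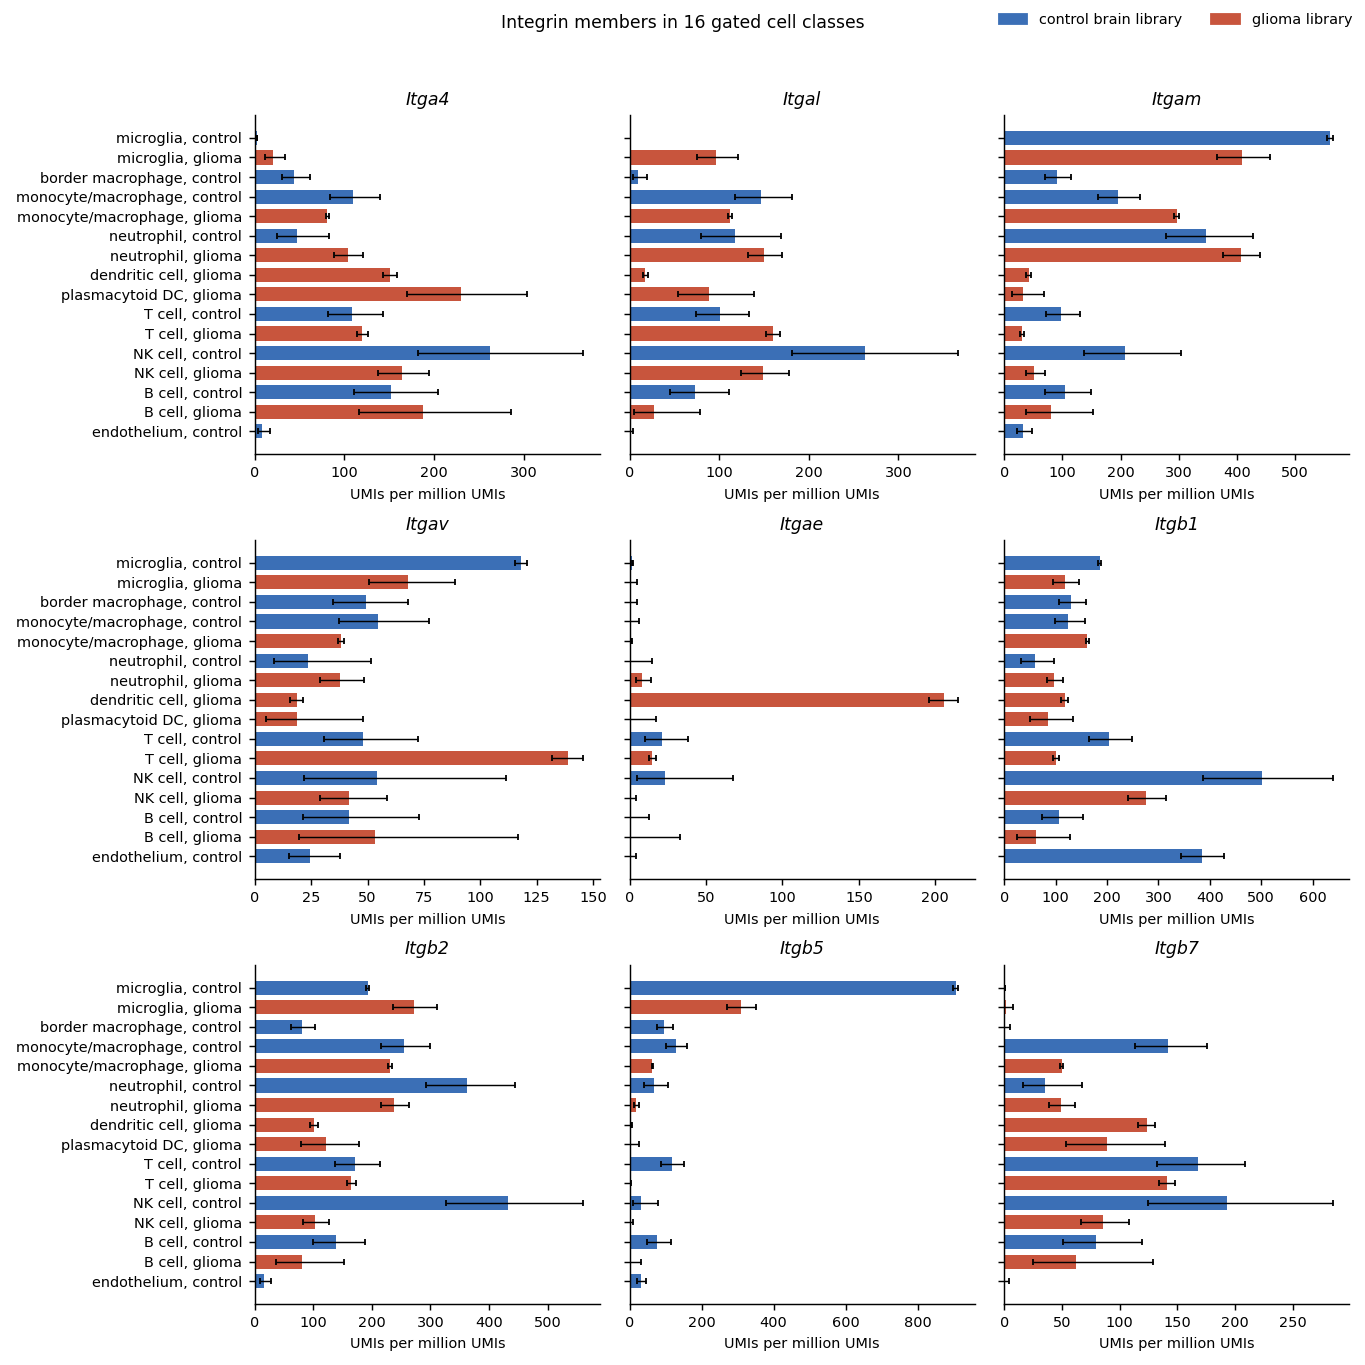
Level of each member in 16 gated cell classes, in CPM (horizontal axis, linear, a separate scale for each gene), with control classes in blue and glioma classes in red. Bars are levels of 1 pooled library and lines are exact Poisson 95% intervals; Itgb5 is longest in control microglia (906 CPM), and the bars of Itga4, Itgal and Itgb7 are at or near 0 there.

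Itgb7, the beta chain that alpha 4 and alpha E share, followed Itga4 more closely. Control microglia had 42 UMIs, or 0.567 CPM (0.409 to 0.767), and glioma microglia had 1 UMI, or 1.30 CPM (0.0330 to 7.26). Border-associated macrophages and endothelium had 0 UMIs, allowing up to 4.0 and 3.52 CPM. Microglia, border-associated macrophages and endothelium were thus all near 0. Glioma macrophages stood at 49.7 CPM (48.2 to 51.2), with a UMI in 39.9% of cells at a median of 12527 UMIs, against 1.92% of glioma microglia at a median of 14580. Control NK cells (193 CPM), control T cells (168 CPM), control macrophages (142 CPM) and glioma T cells (141 CPM) had the highest levels, with overlapping intervals between neighbours, and the interval below glioma T cells was separate. The free RNA of the control library held no Itgb7 UMI and that of the glioma library 52.7 CPM. By the T cell list, free RNA made up at most 2.74% of the RNA of glioma macrophages.

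Itgb5, a beta chain partner of alpha V, showed the reverse order. Control microglia stood at 906 CPM (899 to 913), and 96.2% of cells had a UMI. Glioma microglia followed at 309 CPM (271 to 351), with a UMI in 90.4%, and glioma macrophages at 63.4 CPM (61.7 to 65.1), with a UMI in 46.9%. These 3 levels were separate. In glioma T cells, which serve as background, Itgb5 was at 3.60 CPM (2.58 to 4.88) and in 3.08% of cells at a median depth of 8005.5 UMIs, and in glioma dendritic cells at 4.77 CPM (3.45 to 6.42). Non-microglial control classes ranged from 30.9 CPM in NK cells to 128 CPM in macrophages. Free RNA of the control library carried 340 CPM of Itgb5 and could have brought up to 45.8 CPM to T cells and 72.7 CPM to border-associated macrophages, whose level was 96.1 CPM (75.2 to 121).

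Itgav, the alpha V chain, was high in control microglia at 118 CPM (116 to 121) and higher in glioma T cells at 139 CPM (132 to 146). Those were the first and the second of the order, and the intervals of both were separate from the next. Glioma microglia had 67.8 CPM (50.6 to 88.9) and glioma macrophages 38.1 CPM (36.8 to 39.5). Glioma dendritic cells had the lowest level, 18.5 CPM (15.8 to 21.6), next to plasmacytoid dendritic cells at 18.8 CPM (5.11 to 48.0).

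Itgam, Itgb2 and Itgb1 were present in both microglia and macrophages. Itgam (CD11b), a routine myeloid marker in flow cytometry, was highest in control microglia at 560 CPM (555 to 565), then in glioma microglia at 409 CPM (365 to 457) and glioma neutrophils at 407 CPM (377 to 440), which did not differ beyond counting error. Glioma macrophages had 296 CPM (293 to 300). Itgam marked both kinds of cell, with a UMI in 90.1% of control microglia and 88.2% of glioma macrophages, against 11.4% of glioma T cells. Itgb2, the common beta chain of LFA-1 and CD11b, had 193 CPM (189 to 196) in control microglia, 271 CPM (236 to 311) in glioma microglia and 230 CPM (227 to 234) in glioma macrophages. Its highest levels were in control NK cells (432 CPM) and control neutrophils (363 CPM), and its lowest in endothelium (16.4 CPM, 8.98 to 27.6). Itgb1, the most widely paired beta chain, spanned 59.1 CPM in control neutrophils to 502 CPM in control NK cells. Control endothelium, with 384 CPM (343 to 428), overlapped the NK cells. Control microglia (185 CPM) and glioma macrophages (162 CPM) were close.

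Itgae (CD103) had its highest level in dendritic cells. Glioma dendritic cells stood at 205 CPM (196 to 215), and 64.8% of 509 cells had a UMI. The next levels were control NK cells at 23.2 CPM (3 UMIs, 4.78 to 67.7), control T cells at 20.9 CPM (10 to 38.5) and glioma T cells at 14.7 CPM (12.6 to 17.1). Control microglia had 1.90 CPM (1.60 to 2.25) and glioma macrophages 1.10 CPM (0.890 to 1.34). Glioma microglia had 0 UMIs, which allows up to 3.91 CPM. Of the 16 classes, 9 had no Itgae UMI.

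The members were then compared between classes. A member was called higher or lower when its levels differed at least 2-fold and the sums held at least 20 UMIs together, with no test, since each side was 1 library. Log2 ratios were computed with 0.5 UMIs added to each sum. Ratios that share a class, such as control microglia, are not independent.

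Glioma macrophages were first contrasted with control microglia, across libraries. Classes rest on marker genes, and whether the glioma macrophages had come from blood was not measured. Itgal (log2 ratio 7.72, 7.28 to 8.23), Itgb7 (6.44, 6.02 to 6.93) and Itga4 (5.12, 4.90 to 5.35) were higher in macrophages. Itgb5 (-3.84, -3.88 to -3.80) and Itgav (-1.63, -1.69 to -1.57) were lower. Thus 3 of 9 members were called higher, where 16.8% of 14377 genes were, and 2 were called lower, where 33% of genes were. The remaining 4 members lay within 2-fold: Itgam at -0.92, Itgae at -0.79, Itgb1 at -0.20 and Itgb2 at 0.26. The median of the members was -0.20. Library and cell class cannot be told apart in this comparison.

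The same contrast was therefore taken inside the glioma library, against its 52 microglia. Itgb7 (4.67, 2.77 to 10.56, from 1 UMI in microglia) and Itga4 (1.91, 1.25 to 2.76) were higher in macrophages and Itgb5 (-2.29, -2.47 to -2.09) was lower. These 2 higher and 1 lower members stood beside 8.01% and 15% of 12464 genes. Itgal did not reach 2-fold (0.21, -0.11 to 0.57), nor did Itgb1 (0.44), Itgb2 (-0.24), Itgam (-0.47) or Itgav (-0.84). For Itgal the outcome turned on which cells counted as microglia: its ratio was 1.02 against the 42 microglia with a Sparc UMI, 1.38 against the 31 without a monocyte-list UMI, and 2.36 with stricter gates, which left 19 microglia.

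Between the microglia of both libraries, Itgal was higher in glioma (7.51, 6.94 to 8.12), as were Itga4 (3.21, 2.33 to 3.91) and, from 1 UMI, Itgb7 (1.77, -4.14 to 3.76), whose interval spanned 0. With the 31 glioma microglia without monocyte UMIs, Itga4 was at 1.89, from 3 UMIs. Itgb5 was lower (-1.55, -1.74 to -1.37). The 3 members called higher stood beside 11.2% of 13144 genes and the 1 called lower beside 15%. Itgam (-0.45), Itgav (-0.79), Itgb1 (-0.64) and Itgb2 (0.50) lay within 2-fold. Itgae, at 0 UMIs in glioma, gave no ratio. The control gate asked for a higher density of microglia-list UMIs than the glioma gate, so these classes were not defined alike.

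Inside the control library, T cells could be set against microglia. Itgb7 (8.20, 7.65 to 8.78), Itgal (7.57, 6.94 to 8.22), Itga4 (5.56, 5.07 to 6.01) and Itgae (3.52, 2.37 to 4.38) were higher in the 58 T cells. Itgb5 (-2.94, -3.35 to -2.57), Itgam (-2.49, -2.95 to -2.10) and Itgav (-1.26, -1.95 to -0.71) were lower, Itgav within 2-fold (-0.91) when mitochondrial and ribosomal genes were left out of the scaling. The members called were 4 and 3 of 9, beside 16.5% and 18.6% of 13198 genes. In a comparison added after the values were seen, the 58 control macrophages against the same microglia, Itgal (8.12), Itgb7 (7.96) and Itga4 (5.57) were higher, and Itgb5 (-2.81), Itgam (-1.52) and Itgav (-1.09) lower, beside 13.2% and 20.2% of 13166 genes. The 3 genes that were higher in glioma macrophages were thus higher also within normal brain.

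**Figure D2:**
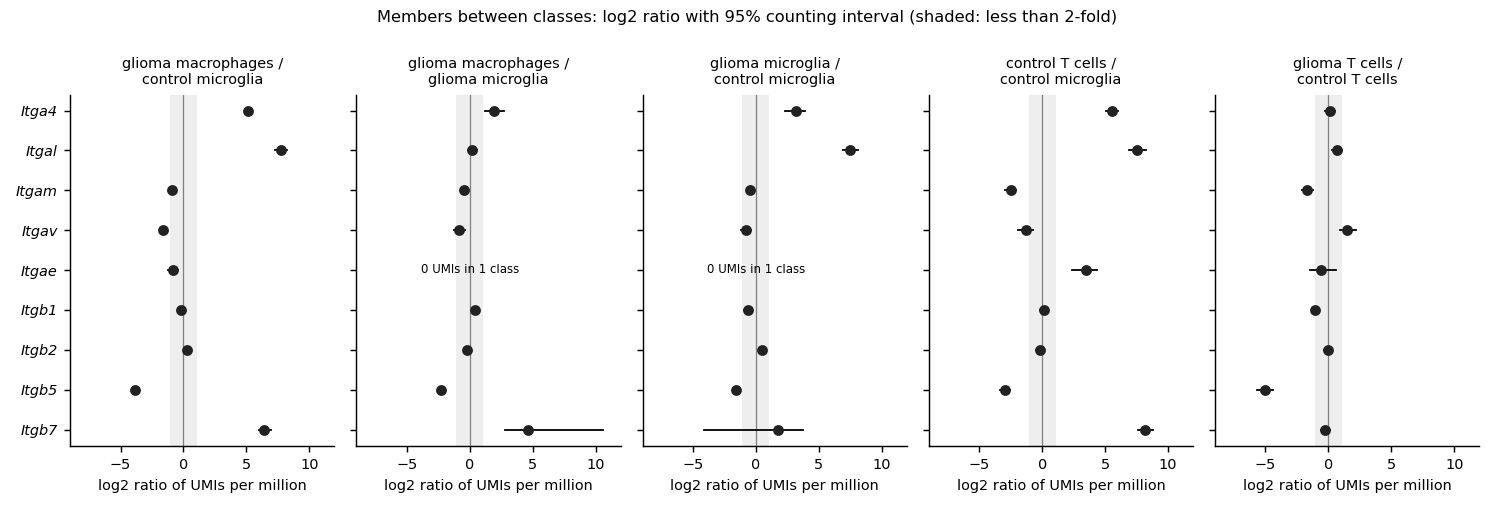
Log2 ratio of CPM between classes (horizontal axis) for each member (rows) in 5 comparisons (panels, first class over second). Points are ratios and lines 95% counting intervals, cropped at the panel edge; the shaded band is less than 2-fold. Itgal lies far to the right in the panels against control microglia (7.72, 7.51 and 7.57) and in the band for glioma macrophages against glioma microglia (0.21).

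Macrophages and T cells of the same kind were also compared between libraries. Glioma macrophages, against control macrophages, were lower in Itgb7 (-1.52, -1.83 to -1.18) and Itgb5 (-1.03, -1.35 to -0.67), in the second comparison added after the values were seen. No member was called higher, beside 9.63% of 12465 genes, and the 2 lower stood beside 14.3%. Itga4 (-0.45), Itgal (-0.40), Itgb2 (-0.15) and Itgam (0.60) differed less than 2-fold. The make-up differed, since 27 of the 58 control and 1111 of the 6246 glioma macrophages had 3 or more UMIs of the monocyte gene Ly6c2. Among cells with 0 Ly6c2 UMIs the Itgb7 direction turned (0.47, from 29.2 CPM in control to 43.0 CPM in glioma), and among cells with 3 or more it was -1.59. Itgb5 was at -1.56 and -0.50 in the same cells. The microglia list (8 genes) summed to 752 CPM in control and 46.1 CPM in glioma macrophages, and the gate limits on this list differed between the libraries. Free RNA could have brought up to 40.6 of the 128 CPM of Itgb5 in control macrophages, and with free RNA subtracted Itgb5 stood at -0.64, within 2-fold. These settings were chosen after the values were seen.

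Glioma T cells, against control T cells, were higher in Itgav (1.5, 0.94 to 2.19), from 48.2 to 139 CPM, and lower in Itgb5 (-5.02, -5.64 to -4.42), Itgam (-1.68, -2.11 to -1.19) and Itgb1 (-1.03, -1.32 to -0.71). Itgb1 lost the 2-fold call with stricter gates (-0.71) and with means over cells (-0.67). The members called were 1 and 3 of 9, beside 8.49% and 13.4% of 10494 genes. Itga4 (0.12), Itgb2 (-0.06), Itgb7 (-0.26), Itgae (-0.57) and Itgal (0.66) lay within 2-fold. Microglia RNA moved with the first pair: Sparc was at 450 CPM in control T cells (39 of 58 cells) and 0.877 CPM in glioma T cells, and the microglia list (8 genes) at 848 and 7.98 CPM. Its part in the lower Itgb5 and Itgam of glioma T cells was not tested. The make-up of the T cells differed too, since 28 of the 58 control T cells and 319 of the 1104 glioma T cells were CD8 T cells.

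Counting members per cell gave the same picture. Itgb5 without Itga4 or Itgal was seen in 94.6% of control microglia (94.1 to 95, exact Clopper-Pearson interval), 48.1% of glioma microglia (34.0 to 62.4) and 6.55% of glioma macrophages (5.95 to 7.19). A UMI of Itga4 or Itgal was seen in 1.65% of control microglia, 42.3% of glioma microglia (28.7 to 56.8), 78.3% of glioma macrophages (77.3 to 79.4) and 84.4% of glioma T cells (82.1 to 86.5). All 22 glioma microglia with Itga4 or Itgal also held Itgb5. With each cell thinned to 1000 UMIs, Itga4 or Itgal was seen in 0.356% of control microglia, 7.69% of glioma microglia (4 cells, 2.14 to 18.5) and 17.1% of glioma macrophages (16.2 to 18.1). Itgb5 alone was then seen in 59.0%, 21.2% and 4.92%. The order of the 3 classes was the same at both depths. Median depths were 6666.5 UMIs in control microglia, 14580 in glioma microglia and 12527 in glioma macrophages.

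**Figure D3:**
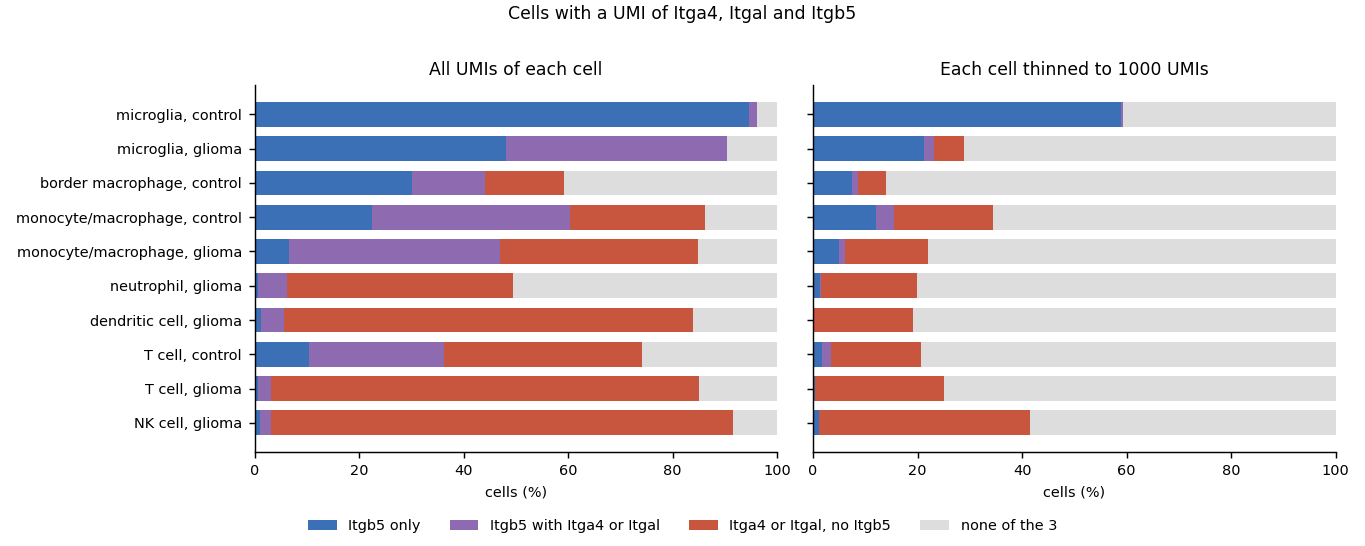
Share of cells (horizontal axis, percent) with a UMI of Itgb5 only (blue), of Itgb5 with Itga4 or Itgal (purple), of Itga4 or Itgal without Itgb5 (red) or of none (grey), in 10 classes with at least 50 cells, with all UMIs (left) and thinned to 1000 UMIs per cell (right). Blue falls from 94.6% in control microglia to 48.1% in glioma microglia and 6.55% in glioma macrophages at full depth.

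Within glioma macrophages, Ly6c2 UMIs per cell gave a range from monocyte to macrophage, Ly6c2 being a marker of fresh monocytes. No member differed 2-fold between the 1111 cells with 3 or more Ly6c2 UMIs and the 4027 cells with 0, beside 2.18% (higher) and 6.6% (lower) of 12221 genes. The largest difference was in Itgb7 (0.79, 0.68 to 0.90), which stood at 43.0, 54.8 and 74.4 CPM with 0, 1 to 2 and 3 or more Ly6c2 UMIs. Itga4 was at 76.8, 87.7 and 91.8 CPM (0.26), and Itgal at 117, 103 and 99.7 CPM (-0.24). Itgb5 (-0.43), Itgav (-0.41), Itgb1 (-0.41) and Itgae (-0.36) had lower values in the high Ly6c2 cells, and Itgam (0.17) and Itgb2 (0.18) higher ones. The Itgae value rested on 11 UMIs in the high cells, 0.867 CPM (0.433 to 1.55). In the cells with 0 Ly6c2 UMIs Itgae was at 1.15 CPM (0.895 to 1.46), so the intervals overlapped. In control macrophages, with far fewer cells, Itgb7 was at 29.2 CPM (12.6 to 57.4) in 29 cells with 0 Ly6c2 UMIs and 223 CPM (172 to 284) in 27 cells with 3 or more. Itgal was at 87.5 (56.0 to 130) and 202 CPM (154 to 261), Itgb2 at 146 (104 to 198) and 350 CPM (285 to 425), and Itgb5 at 197 (148 to 257) and 68.6 CPM (41.9 to 106). For these 4 genes the control intervals were separate. The ranges of both libraries were not compared by a test. Free RNA could have brought up to 54.3 CPM of Itgb5 to the control cells with 0 Ly6c2 UMIs and 28.7 CPM to those with 3 or more, and its part in the Itgb5 difference was not tested.

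**Figure D4:**
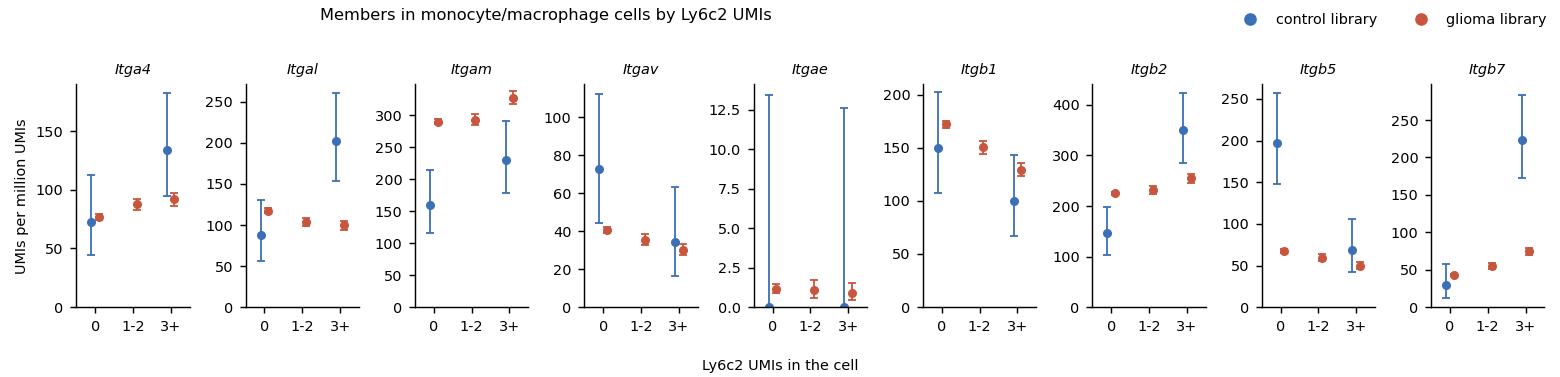
Level of each member (vertical axis, CPM, from 0, a separate scale for each gene) in monocyte/macrophage cells with 0, 1 to 2, or 3 and more Ly6c2 UMIs (horizontal axis). Points are levels and lines exact Poisson 95% intervals, blue for control (only 2 cells had 1 to 2 UMIs, not shown) and red for glioma; Itgb7 in control rises from 29.2 to 223 CPM.

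Dendritic cell subclasses of the glioma library carried opposite sets of members. Of the 509 dendritic cells, 47 were of the Xcr1 type (conventional type 1 markers), 174 of the Plet1 and Ccl17 type and 74 of the Ccr7 type, which carries the marker of migratory dendritic cells. The others fell in no single type. Itga4 was at 457 CPM (411 to 506) in the Ccr7 type, with a UMI in 95.9% of cells, against 124 CPM (102 to 150) in the Xcr1 type and 102 CPM (90.4 to 114) in the Plet1 and Ccl17 type. Itgb1, the VLA-4 partner, was likewise higher in the Ccr7 type (242 CPM, 209 to 278) than in the others (117 and 97.5 CPM). The remaining partners ran the other way. Itgae was at 1.26 CPM (0.0319 to 7.01) in the Ccr7 type, 272 CPM (239 to 308) in the Xcr1 type and 171 CPM (156 to 187) in the Plet1 and Ccl17 type. Itgb7 was at 18.9 CPM (10.6 to 31.1), 130 CPM (107 to 156) and 144 CPM (131 to 158), and Itgb2 at 28.9 CPM (18.3 to 43.4), 121 CPM (99.4 to 146) and 111 CPM (99.1 to 123). Free RNA could have brought up to 5.58 CPM of Itga4 to the Ccr7 type. The Ccr7 type was therefore high in both chains of VLA-4 and low in both chains of the E-cadherin receptor.

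T cell subclasses of the glioma library differed in Itgb7, Itgav and Itgae. Regulatory T cells (131) had 330 CPM of Itgb7 (302 to 360), with a UMI in 85.5% of cells, against 166 CPM (125 to 217) in gamma delta, 120 CPM (109 to 131) in CD8 and 86.3 CPM (77.2 to 96.2) in CD4 T cells. Regulatory T cells also had the highest Itgav, 224 CPM (201 to 249), followed by CD4 T cells at 179 CPM (165 to 193), gamma delta T cells at 103 CPM (71.2 to 144) and CD8 T cells at 69.9 CPM (61.6 to 79.0). Intervals of the first and second were separate for both genes. Itgae, the marker of tissue-resident T cells, was at 66.6 CPM (41.7 to 101) in gamma delta, 28.6 CPM (20.8 to 38.4) in regulatory, 13.4 CPM (9.90 to 17.7) in CD8 and 6.09 CPM (3.86 to 9.14) in CD4 T cells. Itgal was lower in regulatory T cells (110 CPM, 94.5 to 128) than in CD4 (189 CPM, 175 to 203) and CD8 T cells (172 CPM, 159 to 186). Itga4 spanned 75.6 CPM in gamma delta to 131 CPM in CD4 T cells.

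**Figure D5:**
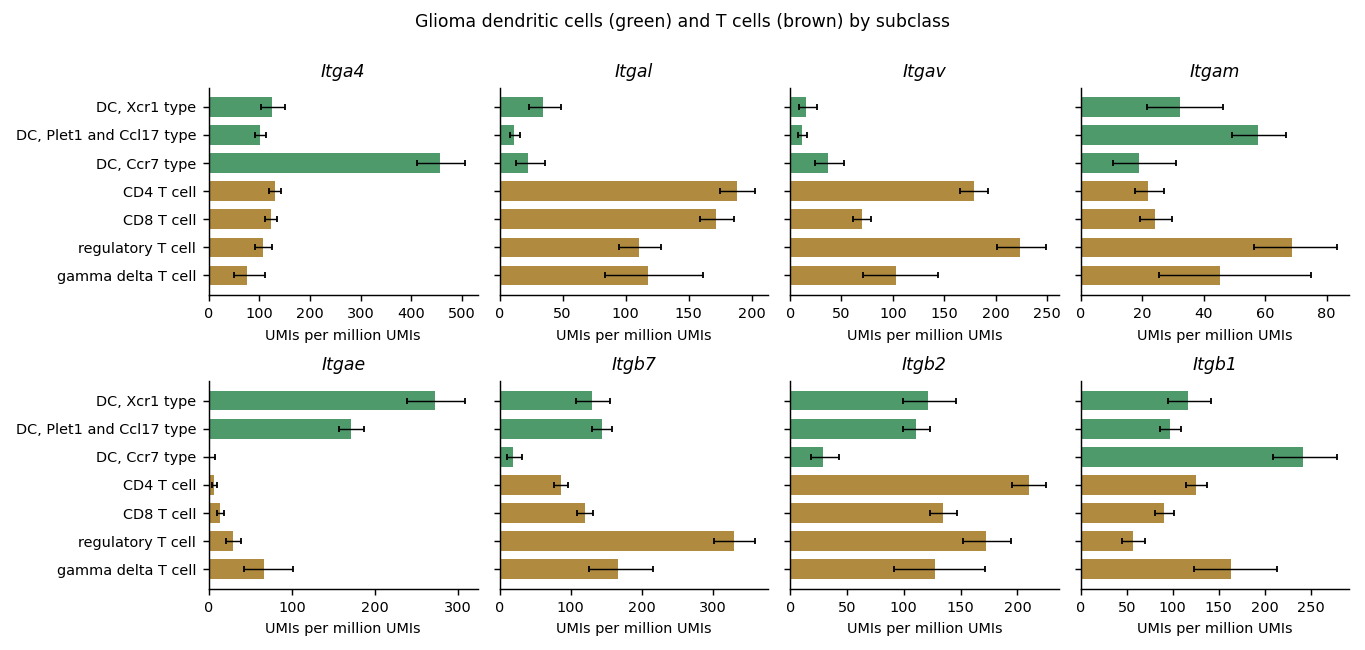
Level of 8 members (horizontal axis, CPM, from 0, a separate scale for each gene) in 3 glioma dendritic cell types (green) and 4 glioma T cell types (brown), with exact Poisson 95% intervals. The Ccr7 type is highest in Itga4 (457 CPM) and lowest of the dendritic cells in Itgae (1.26 CPM), and regulatory T cells are highest in Itgb7 (330 CPM).

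Partner chains were counted together in single cells. In control microglia, Itgam with Itgb2 was seen in 60.3% of cells (59.3 to 61.2) and Itgav with Itgb5 in 47.2% (46.2 to 48.1). The products of the single shares were 58.1% and 46.5%. In glioma macrophages, Itgal with Itgb2 was seen in 56.3% (55.1 to 57.5), Itga4 with Itgb1 in 45.2% (44.0 to 46.4) and Itga4 with Itgb7 in 23.5% (22.4 to 24.5), where the products were 52.7%, 42.5% and 21.8%. The same 3 pairs were seen in 0.192%, 1.02% and 0.0183% of control microglia. In glioma dendritic cells, Itgae with Itgb7 was seen in 54.6% (50.2 to 59.0), with a product of 45.5%. Cells of higher depth hold more of every gene, so the same pairs were counted after thinning to 1000 UMIs. In glioma macrophages, Itgal with Itgb2 was then seen in 1.78% against a product of 1.89%, Itga4 with Itgb1 in 0.977% against 1.22%, and Itga4 with Itgb7 in 0.544% against 0.469%. In control microglia the shares were 7.57% against 7.31% for Itgam with Itgb2 and 7.15% against 6.91% for Itgav with Itgb5, and in dendritic cells 2.55% against 1.95% for Itgae with Itgb7. Each of these 6 products lay inside the 95% interval of its share.

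The genes most like each member across the 16 classes were named by the highest Pearson correlation of log2(CPM + 1), a description over sums that share 2 libraries, among 9424 genes. For Itga4 they were Runx3 (0.90), Arhgap15 (0.90) and Mndal (0.88), and for Itgal Pstpip1 (0.93), Runx3 (0.89) and Emp3 (0.86). Runx3, a transcription factor of lymphocytes and dendritic cells, thus stood among the 3 of both. Itgb7 was most like Hopx (0.94), Cytip (0.92) and Cyfip2 (0.91). Itgb5 was most like Ptgs1 (0.96), the cyclooxygenase gene of resting microglia, Cebpa (0.95) and Camk1 (0.94). Itgam was most like the Fc receptor gene Fcgr3 (0.87), Arsg (0.85) and Gm49368 (0.85), and Itgb2 like Gpsm3 (0.91), Cyba (0.85) and Zbtb7b (0.84). Itgav went with Inpp4b (0.81), Uhrf2 (0.78) and Maf (0.77), Itgae with Adam23 (0.85), Nectin1 (0.75) and Lgals7 (0.70), and Itgb1 with Mosmo (0.91), Spice1 (0.89) and Mblac2 (0.89). Spice1 and Mblac2 met the minimum level of 20 CPM with 3 UMIs each in the 25 control NK cells, and Mosmo was highest there with 11 UMIs, the class where Itgb1 was highest too, so these values rest on few UMIs. Among the members themselves, Itga4 was most like Itgb7 (0.86) and Itgal (0.76), and Itga4 and Itgb5 ran opposite (-0.65).

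Some of the other integrin chains also differed between the classes. Of 13 other alpha chain genes, 11 had 20 UMIs in glioma macrophages against control microglia. Of these, 4 were higher and 4 lower, beside 16.8% and 33% of all genes, so the lower count was near the background. The higher ones included Itgax (CD11c, 4.65), from 6.58 to 166 CPM, Itga8 (7.42, 5.51 to 13.31, from 1 UMI), Itga1 (5.26), a collagen receptor chain, and Itga3 (1.04, -0.15 to 2.49, under 1 CPM on both sides). The lower ones included the laminin receptor chain Itga6 (-4.34), from 244 to 12 CPM, and, at under 1 CPM on both sides, Itga7 (-2.28), Itgad (-2.38) and Itga10 (-1.06). Itga5 (0.07), the fibronectin receptor chain, and Itga9 (-0.35) lay within 2-fold. Of 5 other beta chain genes 3 had 20 UMIs, and Itgb3 was lower (-5.76), from 22.8 to 0.415 CPM. Inside the glioma library the same directions held against glioma microglia for Itgax (2.06), Itga1 (2.70, 0.80 to 8.59, from 1 UMI), Itga6 (-3.31) and Itgb3 (-3.44, -4.90 to -0.89, from 3 UMIs). In glioma against control T cells, Itgb3 (1.14), the other main partner of alpha V, Itgb8 (13.2 CPM against 0 UMIs, at least 2.11-fold higher), which activates TGF-beta with alpha V, and Itga1 (1.11, -0.24 to 3.62, from 3 UMIs) were higher, and Itga6 (-1.40) was lower.

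In glioma macrophages against control microglia, 7 of 22 ligand genes (18 with 20 UMIs) were higher and 7 lower, beside 16.8% and 33% of all genes, so the lower count was near the background. Vcam1, the VLA-4 ligand, was higher (3.16), from 21.6 to 194 CPM, and Icam1, the LFA-1 and CD11b ligand, lower (-3.38), from 611 to 58.6 CPM. The ratios farthest from 0 were those of Jam2 (-9.66) and Jam3 (-9.62, -15.51 to -7.72, from 1 UMI), junctional molecules, the complement gene C3 (8.03), and Cdh1, the E-cadherin gene itself (5.14 CPM against 0 UMIs, at least 127-fold higher). Thrombospondin Thbs1 and fibronectin Fn1, also on the ligand list, were high too but served as gate markers of the macrophages. Gate markers were not left out of the ligand count, so the higher count was partly fixed by the gate. In glioma microglia Vcam1 (3.33) and Icam1 (-3.0) stood as in macrophages against control microglia. Along Ly6c2, Vcam1 was the 1 ligand called, lower in the high cells (-2.28), with 49.3 against 240 CPM. Of 32 activation and adaptor genes (31 with 20 UMIs), 4 were higher and 5 lower in macrophages, both below the shares over all genes. Those farthest from 0 were the talin gene Tln2 (-8.82), Cd44 (4.97), the Rap1 exchange factor Rasgrp2 (4.24) and the Src-family kinase Fgr (3.81), and the tetraspanins Cd81 (-3.35) and Cd9 (-2.47) were among the lower ones.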

How the data were processed

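Droplet 3′ libraries of CD45+ cells were processed with Cell Ranger 3.0.2, which includes the aligner STAR, and with Seurat 3, per the submitters' processing notes, which name the builds GRCh38 and mm10 without roles. Strand and intron settings were not given in the sources used here. The authors deposited raw UMI counts per gene and barcode, unfiltered, in 1 matrix per group. Nothing in the files ties barcodes to animals.

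The members and all gene lists were chosen with earlier results of these data known, including the high Itgal of glioma microglia and the Itgae of a dendritic cluster. Those results are therefore no independent support. Numerical gate limits were set after marker UMIs, but not member UMIs, were seen.

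Barcodes with at least 1000 UMIs and at most 10% mitochondrial UMIs were kept. A cell entered a class when it had a minimum number of that list's markers (for example 5 of 9 T cell, 5 of 9 neutrophil, 4 of 12 dendritic cell, 4 of 8 NK cell and 4 of 8 B cell markers) and few of the others. Microglia needed 4 of 8 markers, with at least 20 microglia-list UMIs per 10000 in control but only 5 in glioma. Control macrophages held under 20 microglia-list UMIs per 10000, and glioma macrophages did not meet the glioma microglia limits. Other classes held under 20 UMIs per 10000 of the microglia list in control and of the pan-macrophage list in glioma. Microglia and macrophages were thus not defined alike in both libraries. Macrophages needed 3 of 8 monocyte or 4 of 10 tumour macrophage markers and 3 of 8 pan-macrophage markers. Cells in several classes (82 control, 107 glioma) were left out and no doublet caller was run. Counts were summed per class and scaled to CPM with exact Poisson intervals, and ratios have conditional binomial intervals. The ratio intervals were tried only on sums simulated from the Poisson model that they assume, which is no independent check of their coverage. Clustering of UMIs within cells was not simulated, and the intervals do not cover it. A sum of 0 was set to 3 UMIs for a bound. Free RNA came from barcodes with 20 to 100 UMIs. The bound on free RNA in a class used a list foreign to it.

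Named genes were all 9 members, all other integrin chain genes with 20 UMIs that differed 2-fold, within each other list the 4 largest called ratios, and the 3 most correlated genes of each member. Vcam1, Icam1, Cd81, Cd9, Itga5 and Itga9 were named after their values were seen. One gene that this rule would name is not reported here. Python 3.11.15, numpy 2.4.6, scipy 1.17.1 and pandas 2.3.3 were used.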

Additional observations from a re-analysis of the deposited data

How the results depend on the processing

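Ratios were recomputed with a lower or higher UMI minimum per barcode, 5% or 20% mitochondrial UMIs, looser and stricter gates, means over cells, free RNA subtracted, scaling without mitochondrial and ribosomal genes, and without barcodes shared by both libraries or the deepest 5% of cells. Of 23 member ratios of at least 2-fold in the 6 main comparisons, 19 stayed so and 21 kept their sign in every setting. The exceptions in sign were Itgb7 between microglia (0, that is no ratio beyond a bound, at 5% mitochondrial UMIs, with Sparc-positive cells and without monocyte UMIs, the last pair chosen after the data were seen, and all resting on 1 UMI) and Itgae in control T cells (0 with stricter gates). Itgav in control T cells against microglia (to -0.91) and Itgb1 in glioma against control T cells (to -0.67) fell within 2-fold. Shares over all genes were not computed in the altered settings. The counts of called members below thus have no background beside them and cannot be read as a result about the members. With stricter gates, which left 20 control T cells and 19 glioma microglia and so fewer genes with 20 UMIs, 1 member was higher in control T cells than in microglia, 1 was higher and 1 lower in glioma microglia than in control, 2 were lower in glioma macrophages than in glioma microglia, and 1 was lower in glioma than in control T cells. With free RNA subtracted, 4 members were lower in glioma macrophages than in control microglia (Itgam at -1.14 and Itgae at -2.38 besides Itgb5 and Itgav). In Ly6c2-high cells 1 was lower (Itgae, -1.05, from 11 UMIs before subtraction). The setting removed an upper estimate of free RNA and rescaled the rest. That estimate was 41.6% for control microglia and 2.74% for glioma macrophages. Control free RNA held 0 Itgae UMIs, so in control microglia only the rescaling moved Itgae. In glioma against control macrophages, 1 member was lower with free RNA subtracted and 1 among cells with 0 Ly6c2 UMIs, where Itgb7 was at 0.47, both settings chosen after the data were seen. No paired analysis was possible because each group was 1 library and the columns carry no replicate. Depth limited the small classes: in glioma microglia 1 UMI was worth 1.30 CPM.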

Other observations

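The ligand and adaptor lists were also set beside the other comparisons, as values with no explanation. In glioma against control microglia, 8 of 22 ligand genes were higher and 5 lower, and 4 of 32 activation and adaptor genes were higher and 3 lower, beside 11.2% (higher) and 15% (lower) of all genes. C3 (6.97) and Jam2 (-4.96, -10.85 to -3.07, from 1 UMI) were farthest from 0 besides the gate markers Fn1 (8.45) and Thbs1 (5.97). Among the adaptors these were Cd44 (4.25), the hyaluronan receptor, Rasgrp2 (3.44), Fermt2 (2.46, -0.07 to 3.86, from 3 UMIs) and Cyth1 (2.11), a cytohesin that binds beta 2. In glioma macrophages against glioma microglia, 3 ligand genes (12 with 20 UMIs) were higher and 1 lower, beside 8.01% and 15% of all genes. Of the adaptor genes (31 with 20 UMIs), 1 was higher and 6 lower, beside the same shares. They were led by Tln2 (-7.34), Fgr (3.57, 2.24 to 6.07, from 3 UMIs) and Cd81 (-2.44).

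In control T cells against control microglia, 7 ligand genes (16 with 20 UMIs) were higher and 6 lower, beside 16.5% and 18.6% of all genes. Of the adaptor genes (31 with 20 UMIs), 7 were higher and 8 lower, beside the same shares. Skap1 (10.04) and Rasgrp2 (7.52), which act in the activation of LFA-1 in T cells, stood at 205 and 163 CPM in T cells and at 0.189 and 0.891 CPM in microglia. In glioma against control T cells, 4 ligand genes (12 with 20 UMIs) were higher and 2 lower, beside 8.49% and 13.4% of all genes. Of the adaptor genes (28 with 20 UMIs), 1 was higher and 6 lower, beside the same shares. The lower adaptors included Cd81 (-3.52), Rasgrp2 (-2.81) and Apbb1ip (-2.05), and the ligands farthest from 0 were F11r (-3.46), Mfge8 (-1.89), the gate marker Fn1 (1.75) and Lrrc32 (1.72, 0.17 to 5.09, from 2 UMIs). Microglia RNA in the control T cells, measured by Sparc at 450 CPM, moved with these too and its part was not tested. Along Ly6c2, 3 adaptor genes (30 with 20 UMIs) were lower and none higher, beside 6.6% and 2.18% of all genes. The 3 were Fermt2 (-2.04), Cd81 (-1.96) and Ptk2 (-1.17). Of the other chains Itga1 (1.13) was higher and Itga9 (-1.93) lower.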
